A study of Drosophila melanogaster with 6 samples.

Results

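The genes described here are 47 fruit fly genes that carried only an annotation number, CG followed by digits, and that had a probe set under log2 6 in every young sample and clearly higher in every old sample. This describes the probe set and not always the gene, since CG42336 and CG9380 had a brighter probe set that was high in young flies too. They were chosen by their measured values: among probe sets with a single CG number as gene symbol, the highest of the young samples had to be under log2 6 and the lowest of the old samples had to exceed it by more than 2. The array held 5690 such genes, out of 12067 genes with a probe set of their own. Whole flies of 45 days (old age group) were compared with whole flies of 3 days (young age group), with 3 samples per group. All flies were of the isogenic y(1), w67c23(2) stock, with females and males cultured together in bottles at 20 °C. Old samples are called aged_4 to aged_6 here and young samples young_1 to young_3, as in the data table. Each sample was hybridized to its own Affymetrix Drosophila Genome 2.0 array and normalized by the authors with GCRMA, which gives 1 log2 value per probe set.

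In Drosophila, a CG number is given to each predicted gene, and a name is added once a phenotype, a product or a family is known. Many genes with only a number code for small secreted proteins, enzymes of large families or proteins of the gut, the fat body and the epidermis. Old flies are known for raised activity of innate immunity, in which Toll and Imd signalling drive antimicrobial peptide genes and cyclic dinucleotide signalling through Sting drives antiviral genes. Of the 47 genes, 7 have a name other than their CG number in the RefSeq gene table (assembly Release 6 plus ISO1 MT), which matched all 47 by locus tag. These are Nazo, cGlr1, BaraB, Mayo, gas, SLC22A and Nepl6, so the group was not uncharacterized throughout.

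Each sample is labelled as an equal mixture of females and males, as in the study's methods, whereas its results speak of females. The defining genes of male organs were nevertheless not seen: the 20 probe sets of testis and accessory gland genes on the fixed lists, among them the sex peptide gene SP and the sperm tail gene dj, lay between 1.98 and 2.48 in all 6 samples. The yolk protein gene Yp1, a female product, stood at 14.41 in old and 14.61 in young flies. Yp2 stood at 13.47 and 14.16 and Yp3 at 13.60 and 14.20. The dosage compensation gene msl-2, on the same fixed list, was at 7.60 in old and 7.49 in young flies. By the male organ genes, the samples of both ages go against the sex in their labels in the same way, and what male flies express was not measurable here. Over all probe sets, 56.0% of values were under log2 4, and array medians differed by 0.02 at most.

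The values that chose the genes are given as a description, without a test. Over the 47 genes, the mean of the old samples ran from 5.27 to 11.93 with a median of 7.68, and the mean of the young samples ran from 1.91 to 5.62 with a median of 2.96. The old minus young difference of the group means had a median of 4.52 on the log2 scale, a fold difference of 23.0, and ran from 2.68 to 8.27. The median over all 18769 probe sets was 0.00082. The fold difference was above 100 in 8 genes. Raising all values under log2 6 to 6 brought the median difference to 1.68. This follows from the floor itself, since the rule puts every young value under 6. With young values this low, the size of the difference depends on how they are read. In whole flies, more cells of a type cannot be told apart from more RNA per cell. A gene was called where limma gave more than a 2-fold difference with p under 0.05 and with the FDR, the p adjusted over all probe sets, under 0.15. All 47 genes were called higher, and so were 3.45% of all probe sets. The rule used the same contrast, so nothing follows from this count.

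**Figure D1:**
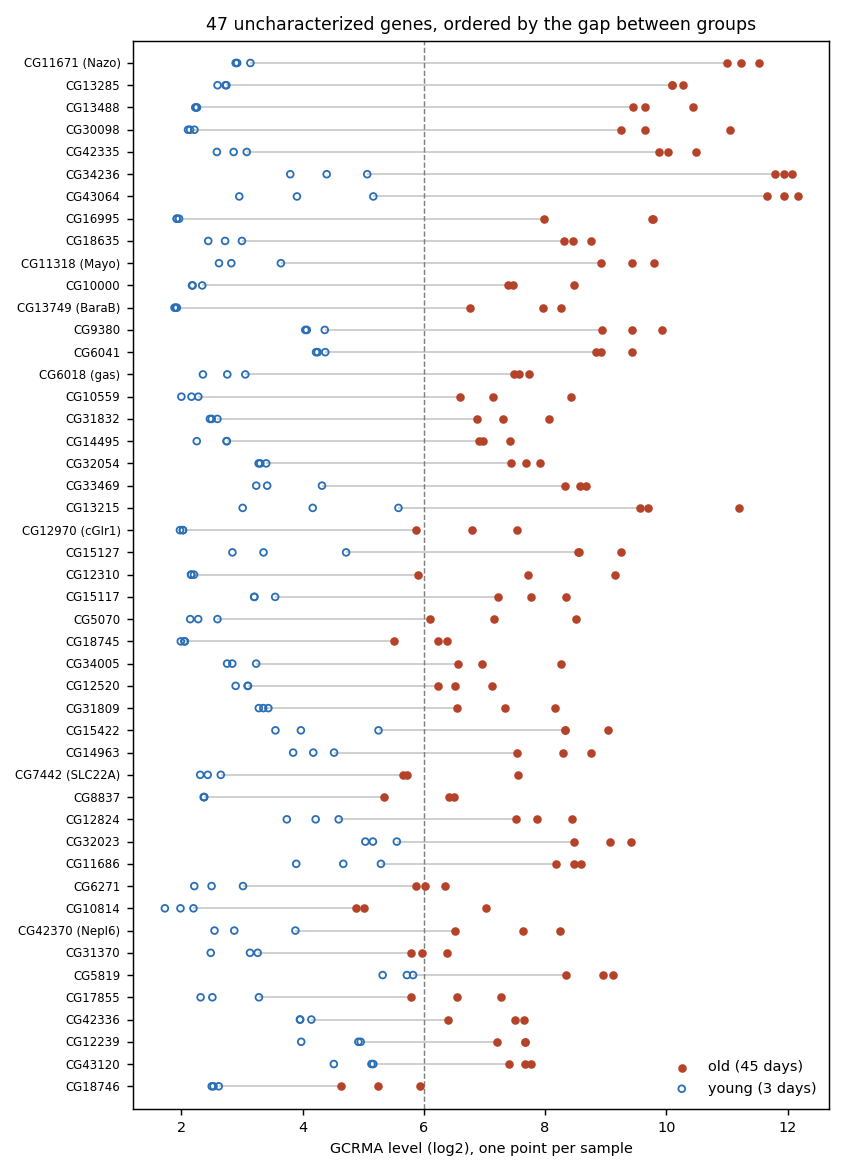
GCRMA level on the log2 scale of the 47 genes in each sample, old flies as filled points and young flies as open points, with genes ordered by the gap between the lowest old and the highest young sample. The gap runs from 2.02 in CG18746 to 7.87 in CG11671 (Nazo), and the dashed line marks the ceiling of log2 6 set on the young samples.

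Not all young values were at the floor of the scale. The male organ probe sets, taken after the values were seen as a mark of the level without signal, reached 2.48 at most. Every young value was at or under this level in 11 genes, and every young value was above it in 28. The level without signal can differ between probe sets: that of the hemocyte gene He was flat, between 3.01 and 3.11 in all samples. A young value just above 2.48 thus need not be signal. All 3 young samples were under log2 4 in 31 genes and none was in 5, which were CG9380, CG6041, CG32023, CG5819 and CG43120. In the old samples, no value of the 47 genes was under log2 4. The mean of the old samples reached log2 10 in 6 genes and stayed under log2 6 in CG10814 and CG18746.

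At the threshold itself, the genes just inside the gap were CG18746 (2.02), CG43120 (2.24) and CG12239 (2.25). Just outside it were CG5849 (1.97), CG34040 (1.95) and CG9084 (1.93), where the number is again the lowest old value minus the highest young value. Inside it, CG43120 was at 7.41, 7.67 and 7.77 in old flies and at 4.52, 5.17 and 5.14 in young flies, and CG12239 at 7.21, 7.66 and 7.68 in old flies and at 3.98, 4.92 and 4.96 in young flies. Outside it, CG5849 was at 4.82, 5.31 and 7.26 in old flies and at 2.39, 2.64 and 2.84 in young flies. CG34040 was at 7.98, 8.44 and 7.91 in old flies and at 3.15, 5.96 and 4.52 in young flies, and CG9084 at 7.16, 7.68 and 7.47 in old flies and at 4.34, 4.96 and 5.23 in young flies. The highest young values inside the ceiling were 5.82 in CG5819, 5.58 in CG13215 and 5.55 in CG32023, and the lowest beyond it were 6.09 in CG14457, 6.10 in CG3505 and 6.11 in CG7381.

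Genes of antiviral and antimicrobial defense included the largest gap of all. CG11671, named Nazo, an antiviral gene under the control of Sting and the NF-kB factor Relish, was at 11.01, 11.53 and 11.23 in the old samples and at 2.90, 2.92 and 3.14 in the young samples, a difference of 8.27. CG12970, named cGlr1, a receptor that senses double-stranded RNA and makes the cyclic dinucleotide that activates Sting, was at 6.80, 5.87 and 7.53 in the old samples. Its young samples were at 2.03, 2.02 and 1.98, the level of probe sets without signal. CG13749, named BaraB, is placed here only as a relative of the antimicrobial peptide gene Baramicin A, and a defense role of its own was not examined. It was at 6.76, 7.97 and 8.27 in old flies and at 1.91, 1.89 and 1.93 in young flies. The young samples of Nazo were the farthest apart of the 3 genes, by 0.24, while the old samples of cGlr1 and BaraB were 1.66 and 1.51 apart.

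Other genes of the same pathway were read from the array after the values of Nazo and cGlr1 had been seen. CG30424, now cGlr2, the second receptor of this kind, was at 11.74, 11.91 and 11.90 in old flies and at 9.12, 9.18 and 9.33 in young flies (difference 2.64, FDR 0.000563, limma). The Sting-regulated genes CG13641 (Srg1) and CG42825 (Srg2) were also called, with differences of 3.19 (FDR 0.0450, limma, just missed without aged_5 or aged_6) and 2.25 (FDR 0.000925, limma). Sting itself (CG1667) had 13.33 ± 0.06 in old and 12.59 ± 0.10 in young flies (SD, n = 3 each), a difference of 0.74 that fell short of the fold criterion (FDR 0.00553, limma). Relish (Rel) differed by 1.0, just short of a 2-fold difference. Also read were IKKbeta, which was not called (0.72, FDR 0.0473, limma), and Vago, which was (2.19, FDR 0.0258, limma). The gene key was called with a difference of 1.004 (FDR 0.00366, limma), a call lost without young_3, aged_5 or aged_6. Unlike cGlr1, all of these were well above the low end of the scale in the young samples.

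The lists of defense genes, which hold none of the 47 genes, gave the level of other immune outputs in the same samples. Of 11 antimicrobial peptide genes, 5 were called higher and 0 lower, with a median difference of 3.99 and the largest in AttD (9.04), CecC (7.58) and CecB (6.67). Without young_2, the young sample with the lowest level of these genes, 8 were called higher and the median difference was 2.51. Of 10 genes of the peptidoglycan recognition family, 8 were called higher and 0 lower, with a median difference of 2.71 and the largest in PGRP-SD (6.18), PGRP-SA (5.44) and PGRP-LF (3.20). Without aged_6, 5 were called higher. Of 11 Turandot and JAK-STAT response genes, 3 were called higher and 0 lower, TotM (7.65), Socs36E (2.83) and vir-1 (1.23), with a median difference of 1.23, and 5 were called higher without young_3. The calls of CecC and TotM were lost without young_1, young_2 or any 1 of the old samples, and that of PGRP-SD without aged_5 or aged_6. Over all genes, each read by its brightest probe set, 4.35% were called higher and 3.8% lower. The summed level of the antimicrobial peptide genes lay between 16.34 and 16.47 in old samples and between 13.31 and 14.87 in young samples, on the log2 scale. Their part in the difference of the 47 genes was not tested.

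Peptidases made up a second group. CG30098, a trypsin-like serine protease gene, was at 9.25, 9.64 and 11.05 in the old samples and at 2.11, 2.14 and 2.22 in the young samples. CG6041, another serine protease gene, was at 8.84, 8.92 and 9.44 in old flies and at 4.22, 4.37 and 4.25 in young flies. CG42335, an aminopeptidase gene of the M1 family, was at 9.87, 10.03 and 10.50 in old flies and at 2.86, 2.59 and 3.08 in young flies. The young samples were closest in CG30098, 0.11 apart, and its old samples were 1.80 apart with aged_6 the highest. CG42370, named Nepl6 for its likeness to neprilysin metallopeptidases, was at 7.64, 6.51 and 8.25 in old flies and at 2.55, 2.87 and 3.88 in young flies.

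The 11 other M1 aminopeptidase genes on the array did not move together. Of these, 1 was called higher (CG11951, difference 1.37, FDR 0.0647, limma), a call lost without young_2, aged_5 or aged_6, and 3 were called lower, CG8773 (-3.94), CG31233 (-3.63) and CG8774 (-3.46). Their median difference was -0.26. Of the 15 midgut enzyme genes on the fixed list, 0 were called higher and 6 lower, with a median difference of -2.54 (-1.67 without aged_6), and their part in these results was not tested.

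Enzymes and transporters of small molecules and sugars formed another group of 6 genes with old means between 5.64 and 7.78. CG10000, a gene for a polypeptide N-acetylgalactosaminyltransferase, which starts O-linked sugar chains on proteins, was at 7.39, 7.46 and 8.48 in old flies and at 2.19, 2.34 and 2.18 in young flies. CG15117, a beta-glucuronidase gene, was at 7.23, 7.76 and 8.34 in old flies and at 3.20, 3.20 and 3.55 in young flies. CG6018 (gas), listed as an alpha esterase in RefSeq synonyms, was at 7.48, 7.73 and 7.57 in old flies and at 2.36, 2.76 and 3.05 in young flies. The old samples of CG6018 were 0.24 apart, those of CG10000 and CG15117 1.09 and 1.11. The carnitine synthesis enzyme gene CG10814 (gamma-butyrobetaine hydroxylase) and CG7442 (SLC22A), of the organic cation and carnitine transporter family, were lower and more scattered. CG10814 was at 4.89, 5.01 and 7.02 in old flies and at 1.73, 1.98 and 2.20 in young flies. CG7442 was at 5.66, 5.72 and 7.55 in old flies and at 2.31, 2.65 and 2.43 in young flies. In both, aged_6 was the highest and the other old samples were close to each other.

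CG6271, a lipase gene of a cluster expressed in the intestine, was at 5.87, 6.01 and 6.34 in old flies and at 2.50, 2.21 and 3.02 in young flies. A further probe set shared with its relative CG6277 was at 12.65, 12.55 and 12.82 in old flies and at 9.43, 9.0 and 11.11 in young flies, far brighter than that of CG6271 alone. The remaining lipases of the cluster went the other way or missed the test: of 5 on the array, 0 were called higher and 3 were called lower, CG17192 (-8.47, FDR 0.0208, limma), CG6295 (-6.37, FDR 0.136, limma) and CG6296 (-1.73, FDR 0.143, limma). CG6283 (0.84, FDR 0.0475, limma) and CG17191 (2.35, FDR 0.184, limma) were higher in every old sample but were not called. The old samples of CG6295 were at 10.39, 7.44 and 2.70. The call of CG6295 held only without aged_4 or aged_6 when a sample was left out, and that of CG6296 only without young_1 or young_3. Among the 13 other N-acetylgalactosaminyltransferase genes, 1 was called higher (pgant3, 1.01, a call lost without young_2 or aged_6) and 1 lower (pgant5, -1.11).

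Ecdysteroid kinase-like genes code for proteins that resemble an enzyme which attaches phosphate to moulting hormone, and most have no known substrate. Among the 47 genes there were 2 of this family. CG10559 was at 6.60, 8.43 and 7.15 in old flies and at 2.0, 2.17 and 2.28 in young flies. CG31370, with 4 coding genes between it and CG10559, was at 5.80, 5.97 and 6.39 in old flies and at 2.48, 3.26 and 3.13 in young flies. Another 38 genes of the family were on the array, of which 9 were called higher and 10 lower, with a median difference of 0.01. The largest differences among those called higher were 2.46 in CG31087, 2.21 in CG11893 (a call lost without young_2 or any 1 of the old samples) and 1.52 in CG13659, and those among the genes called lower were -8.28 in CG10514, -5.09 in CG10513 and -3.17 in CG10560. The family thus held genes that rose and genes that fell.

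The arrestin domain genes CG18745 and CG18746 belong to a cluster of 5 related genes. Proteins with this domain act as adaptors in the trafficking of membrane proteins. CG18745 was at 5.51, 6.23 and 6.37 in old flies and at 2.06, 1.99 and 2.05 in young flies, and CG18746 at 4.63, 5.24 and 5.94 in old flies and at 2.53, 2.62 and 2.50 in young flies. Of the other 3 genes of the cluster, 2 were called higher, and CG18744 was lower in every old sample, with a difference of -0.66 that fell short of the fold criterion (FDR 0.00898, limma). CG18748 was at 8.20, 8.84 and 8.64 in old flies and at 3.52, 4.66 and 6.25 in young flies (difference 3.75, FDR 0.0374, limma), and CG18747 differed by 1.49 (FDR 0.00555, limma). CG18748 missed the rule for the 47 genes with young_3 over the ceiling and a gap of 1.96.

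The 3 genes left with a role code for proteins at the cell surface or with a known domain. CG11318, named Mayo, a receptor of the adhesion G protein-coupled kind, was at 9.44, 8.92 and 9.80 in old flies and at 2.82, 2.62 and 3.64 in young flies. CG31832, a gene for a fibrinogen-related protein, was at 7.31, 6.88 and 8.07 in old flies and at 2.47, 2.50 and 2.59 in young flies. Of the 12 other fibrinogen-related genes, 8 were under log2 4 in all samples, 1 was called higher (CG5550, 1.24, FDR 0.144, limma) and 1 lower (CG1889, -2.74, FDR 0.0838, limma). The call of CG5550 held only without young_3 and that of CG1889 only without young_1 or young_2 when a sample was left out. CG5819, which RefSeq synonyms describe as like the leucine-rich repeat proteins Tartan and Capricious, was at 8.34, 9.13 and 8.95 in old flies and at 5.72, 5.32 and 5.82 in young flies, the highest young mean of the 47 genes.

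For the other 27 genes no role is given here. Their differences ran from 2.68 to 7.91 with a median of 4.35, against a median of 4.75 over the 20 genes with a role. The highest levels of old flies among all 47 genes were found in this group. CG34236 was at 11.79, 12.07 and 11.94 in old flies and at 3.80, 5.07 and 4.40 in young flies, and CG43064 at 11.66, 11.94 and 12.17 in old flies and at 2.95, 3.91 and 5.17 in young flies. These values are on the scale of the array and set no level of one gene against another. The old samples of these genes were 0.28 and 0.51 apart, the young samples 1.27 and 2.21.

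CG13285 was at 10.09, 10.09 and 10.28 in old flies and at 2.60, 2.74 and 2.73 in young flies, and its old samples were 0.19 apart. CG13488 was at 9.44, 9.65 and 10.44 in old flies and at 2.26, 2.25 and 2.23 in young flies. CG16995 was at 7.98, 9.79 and 9.76 in old flies and at 1.92, 1.92 and 1.96 in young flies. The young samples of CG13285 were the farthest apart of these genes, by 0.15, and those of CG13488 and CG16995 stayed at the level without signal. CG18635 was at 8.31, 8.47 and 8.75 in old flies and at 2.72, 2.44 and 3.00 in young flies.

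Some genes with a high old level had scattered young samples. CG13215 was at 9.57, 11.20 and 9.70 in old flies and at 3.01, 4.17 and 5.58 in young flies. CG15127 was at 8.56, 8.55 and 9.25 in old flies and at 2.84, 3.36 and 4.72 in young flies, and CG15422 was at 8.32, 8.32 and 9.04 in old flies and at 3.55, 3.97 and 5.25 in young flies. The young samples of these genes kept the order young_1, young_2, young_3. CG32023 was at 8.47, 9.42 and 9.07 in old flies and at 5.16, 5.03 and 5.55 in young flies, close to the ceiling of the rule. The largest scatter of old samples was in CG12310, at 5.91, 7.72 and 9.15, against 2.21, 2.16 and 2.16 in young flies.

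CG14495 and CG34005 are neighbours with no coding gene between them. CG14495 was at 6.92, 6.98 and 7.42 in old flies and at 2.25, 2.75 and 2.75 in young flies, and CG34005 at 6.96, 6.56 and 8.26 in old flies and at 2.84, 2.75 and 3.23 in young flies. Of the remaining genes, CG33469 was at 8.33, 8.68 and 8.58 in old flies and at 3.23, 3.42 and 4.32 in young flies, and CG32054 at 7.43, 7.68 and 7.91 in old flies and at 3.27, 3.30 and 3.40 in young flies. In CG5070 the old samples were scattered, at 6.11, 8.51 and 7.16, against 2.59, 2.15 and 2.28 in young flies. CG8837 was at 5.34, 6.5 and 6.42 in old flies and at 2.37, 2.37 and 2.38 in young flies, the tightest young samples of this set. The whole set was CG32054, CG33469, CG5070, CG12520, CG31809, CG14963, CG8837, CG12824, CG11686, CG17855, CG42336, CG12239, CG43120 and CG9380, with CG12239 and CG43120 already given at the threshold. Their old means ran from 6.08 in CG8837 to 9.44 in CG9380 and their young means from 2.34 in CG5070 to 4.94 in CG43120.

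A gene with more than 1 probe set could be checked within itself, and 4 of the 47 genes had others. In CG42336 the selected probe set was at 6.40, 7.50 and 7.66 in old flies and at 3.96, 4.14 and 3.96 in young flies. A brighter probe set of the gene was at 13.07, 13.08 and 13.17 in old flies and at 12.96, 13.02 and 13.20 in young flies, and another averaged 12.53 in old and 12.13 in young flies. The third was at 5.83 in old and 6.33 in young flies. CG42336 was thus already high in young flies, and the difference belonged to 1 of its 4 probe sets.

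The same held in part for CG9380. Its selected probe set was at 8.94, 9.44 and 9.94 in old flies and at 4.07, 4.04 and 4.37 in young flies, while its other probe set was at 13.09, 13.16 and 13.31 in old flies and at 11.24, 11.39 and 11.53 in young flies, a difference of 1.80. In CG42335 and CG34005 the other probe sets were near the floor of the scale at each age. That of CG42335 averaged 2.07 in old and 2.06 in young flies, and those of CG34005 averaged 2.23 and 2.95 in old flies and 2.23 and 2.92 in young flies. A joint probe set of CG31809 and its relative CG31810 was at 5.93, 7.09 and 6.10 in old flies and at 4.61, 4.61 and 4.61 in young flies. Which transcripts the probe sets detect is not stated in the files.

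**Figure D2:**
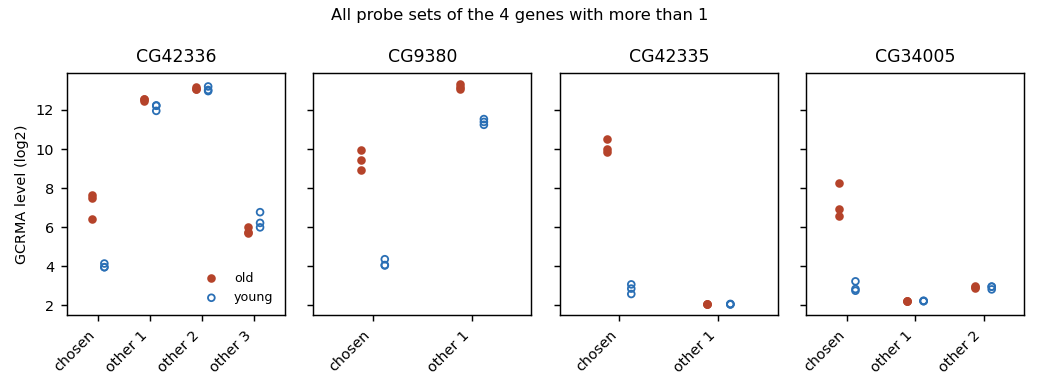
GCRMA level on the log2 scale of all probe sets of the 4 genes with more than 1, old samples as filled and young samples as open points. For CG42336 and CG9380 another probe set was above log2 11 in the young samples, whereas the others of CG42335 and CG34005 stayed under log2 4 in all samples.

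The order of the samples within an age group was shared by many of these genes. The sample aged_4 was the lowest old sample in 40 of the 47 genes (85.1%), and aged_6 was the highest in 34 (72.3%). Over the 600 other probe sets called higher, aged_4 was the lowest in 67.8% and aged_6 the highest in 51.7%. Among young samples, young_3 was the highest in 28 genes (59.6%), close to the 58.3% over the other probe sets called higher. The 3 old samples had medians of 7.43, 7.97 and 8.27 over the 47 genes and the young samples 2.82, 2.87 and 3.13. The old samples were more than 1 apart in 21 genes and the young samples in 9, with young_3 the highest in 7 of these.

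**Figure D3:**
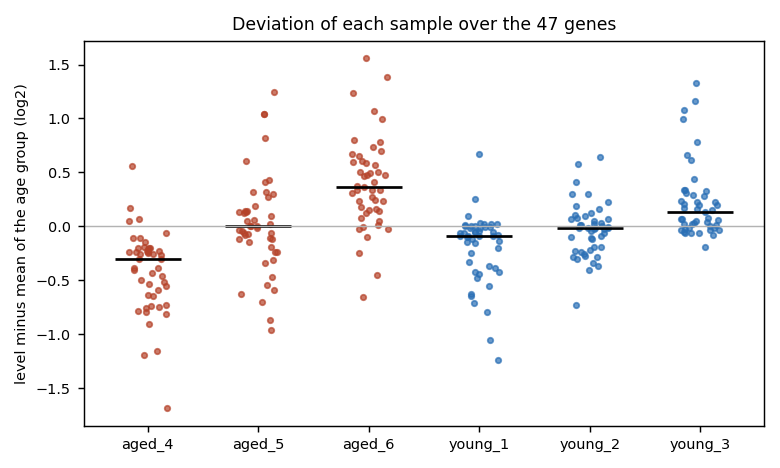
Deviation of each sample from the mean of its age group on the log2 scale, 1 point per gene for the 47 genes, with the median as a line. The median deviation was -0.31 in aged_4, 0.0017 in aged_5 and 0.37 in aged_6, and in the young age group young_3 was the highest at 0.13.

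Other markers differed between the same samples. The summed level of 10 eggshell genes, made by follicle cells of the ovary, was 16.12, 14.49 and 10.25 in aged_4, aged_5 and aged_6, and between 17.11 and 17.16 in the young samples; 7 of the 10 were under log2 4 in aged_6 and 0 in aged_4. The summed level of 10 muscle genes was 15.83, 15.20 and 15.29 in aged_4, aged_5 and aged_6. That of 15 midgut enzyme genes was 16.11, 15.73 and 15.59. In the young samples the muscle and midgut lists were between 16.91 and 17.10 and between 16.81 and 16.93. The sample aged_4 was thus the highest old sample for the eggshell, muscle and midgut lists and mostly the lowest for the 47 genes. It was also the highest for the fat body list, but barely (16.07, against 16.05 in aged_6). For the Malpighian tubule (13.61) and antimicrobial peptide (16.34) lists, however, aged_4 was the lowest old sample. The same held for the eye list by a small margin (15.61, against 15.62 in aged_6). For the hemocyte (12.94) and peptidoglycan recognition (15.16) lists aged_4 was in the middle. In the young age group, the summed level of Turandot and JAK-STAT response genes was 12.79, 13.90 and 15.17 in young_1, young_2 and young_3, that of antimicrobial peptide genes 14.32, 13.31 and 14.87 and that of peptidoglycan recognition genes 12.90, 12.23 and 13.70, so young_3 was the highest for each. The order young_1, young_2, young_3 was found in 17 of the 47 genes (36.2%) and in 39.7% of the other probe sets called higher. The part of these levels in the difference of the 47 genes was not tested. Without aged_4, 65 genes met the rule, and without young_3, 68 did, against 48 to 55 without any other single sample. Leaving a sample out can only keep or add genes under this rule.

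Genes next to the 47 on the chromosome were not chosen by the rule and could be tested. The nearest coding gene on each side that was on the array and was not among the 47 gave 91 genes, of which 18 (19.8%) were called higher and 3 (3.30%) lower by limma. Over all genes the shares were 4.35% and 3.8%. In 30 of the 91 neighbours every old sample was above every young sample. The share was 16.1% over all probe sets, a different base that includes those without a gene symbol. The median difference of the neighbours was 0.0052, and 45 of them were under log2 4 in all samples. At least 1 neighbour was called higher for 13 of the 47 genes, on both sides for 6. With the 2 nearest genes on each side, 23 of 181 (12.7%) were called higher. Whether the transcripts of neighbours overlap was not examined.

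Part of this came from clusters of relatives. Among the neighbours, 7 belong to the kinase-like, arrestin domain or lipase lists, of which 5 were called higher and 1 lower. Of the other 84, 13 (15.5%) were called higher and 2 lower. The largest differences among the neighbours called higher were those of CG13311, the nearest gene on the array on one side of CG32023 with 1 coding gene between them, at 10.38, 10.57 and 10.81 in old flies and at 3.07, 4.19 and 8.09 in young flies (difference 5.47, FDR 0.0770, limma, a call lost without young_2 or any 1 of the old samples), and of CG34176 and CG15423, which flank CG15422. CG15423 was at 10.04, 10.13 and 10.25 in old flies and at 6.43, 6.15 and 6.31 in young flies (difference 3.84, FDR 0.000407, limma), and CG34176 differed by 4.14 (FDR 0.00641, limma). Higher levels were thus found in a run of 3 genes around CG15422.

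The neighbours described next were chosen after their values were seen. Listericin, an antibacterial peptide gene, lies next to CG13215 and was at 11.34, 12.42 and 11.81 in old flies and at 7.23, 8.77 and 9.08 in young flies (difference 3.49, FDR 0.0247, limma). CG32054 lies between CG32053, which differed by 2.07 (FDR 0.0296, limma), and the Sting-regulated gene Srg2 given above. The 3 neighbours called lower were FANCI next to BaraB (-5.78, FDR 0.000563, limma), a gene of DNA crosslink repair, CG10553 next to CG10559 (-2.55, FDR 0.00946, limma) and the glycerol-3-phosphate dehydrogenase gene Gpo-1 next to cGlr1 (-1.78, FDR 0.00244, limma).

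**Figure D4:**
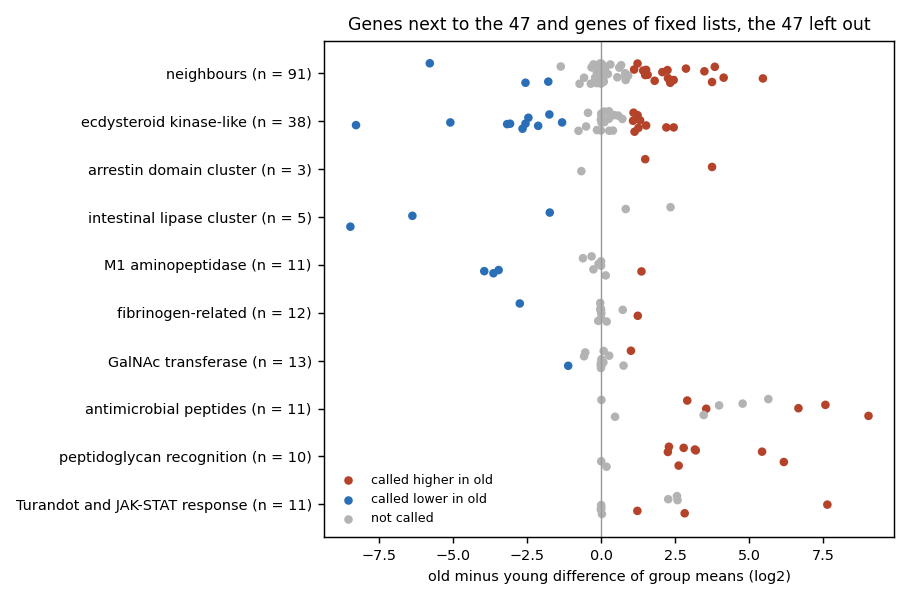
Old minus young difference of group means on the log2 scale for the 91 neighbours of the 47 genes and for the genes of 9 fixed lists without the 47, coloured by whether limma called them higher, lower or neither. Most neighbours lie near 0 with 18 called higher, the kinase-like genes spread to each side, and the peptidoglycan recognition genes have 8 of 10 called higher.

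The rule could also be put to genes that have a name. Its values were met by 93 probe sets, 0.495% of all tested. Of the CG-numbered probe sets, 0.751% met it, and of those with a gene name 0.437%, which was 33. Among probe sets whose highest young value was under log2 6, the shares were 1.27% and 1.05%. Named genes with the same pattern included the antibacterial peptide genes AttD and CecB and the Niemann-Pick gene Npc1b. Another 13 probe sets with several gene names met the values and were not counted, with the largest gap, 8.66, in that of CG44013 and CG44014. With the age groups exchanged, 54 CG-numbered probe sets of 53 genes met the rule, 0.863%.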

How the data were processed

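Log2 values were used as deposited: the authors imported scans of 6 arrays into Partek Genomics Suite 6.5 and applied GCRMA, which corrects the background by probe sequence, equalizes the distributions of the arrays and summarizes each probe set. The table has 18952 probe sets, of which 183 controls were left out. Old columns are numbered 4 to 6 and the labels 1 to 3, so these columns were assigned to the group only. Low values are compressed by GCRMA, and no detection calls were used here.

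Probe sets of all genes were fitted in limma 3.58.1 (R 4.3.3) with age as the only term and Benjamini-Hochberg adjustment over 18769 probe sets. The fit was tested on simulated data. The criteria are those of the methods, which used SAM and a t-test. An exact permutation of 3 against 3 samples cannot give p under 0.1. The number of arrays limits the precision.

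Neighbours came from the order of coding genes in RefSeq, and a gene is represented by its brightest probe set. Fully described genes are the 15 with the largest gap, the 5 next highest old means, those at the threshold, adjacent genes, list genes, genes with a role or a RefSeq name and CG13215, which the study names. CG42336, CG32054, CG33469, CG12310, CG5070 and CG8837 were added after their values were seen. Members and lists were chosen with earlier results of these data known. Protein and promoter comparisons were not made. Beside the lists given, the fixed marker lists of Malpighian tubule (1 of 5 called higher, but a median difference of -0.47), fat body (4 of 10 lower), hemocyte (1 of 7 lower), eye (5 of 11 higher) and muscle genes (9 of 10 lower) were read. The list of sex genes that holds Yp1 and msl-2 had 0 of 4 called. The alternatives were other limits for the rule, centred or requantiled arrays, floors, a t-test, a stricter FDR, a filter on dim probe sets, another variance prior, and each sample left out.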

Additional observations from a re-analysis of the deposited data

How the results depend on the processing

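The count of genes meeting the rule was 39 with a young ceiling of log2 5 and 57 with 7, 65 with a gap over 1.5 and 33 over 3, 37 with values under log2 4 raised to 4, 52 after a further quantile normalization (46 of the 47 among them), and 55 with joint probe sets of CG genes, an addition made after the data were seen. With each sample left out it ran from 48 to 68. It could not fall there, since the rule uses the lowest old and the highest young value, and all 47 genes stayed each time. The median difference of the 47 genes, 4.52, was 3.66 after a floor of log2 4 and 1.68 after a floor of log2 6, which follows from the floor itself, and ran from 4.35 to 4.76 with each sample left out. Neighbours called higher numbered 13 to 19 over the alternatives that kept the 91 genes, with 17 by the methods' t-test, and those called lower 3 in each, but 8 with the 2 nearest genes on each side. Genes of the 9 fixed family and immune lists called higher numbered 20 to 34, against 30 of 114 (26.3%) in the main setting. The fewest were at an FDR under 0.05 and without aged_6. Those called lower numbered 14 to 18, against 18 of 114 (15.8%). Over all genes, 4.35% were called higher and 3.8% lower. No paired analysis was possible because the columns of the old age group do not carry the numbers of the labels. By the protocol, flies of 3 and 45 days were taken from the same culture of a replicate, so an old and a young sample may share a cohort, but which ones do is not known here. The comparison of protein relatives was not run, since no protein sequences were used here.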
